A study of Mus musculus with 13 samples.

Results

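The 9 genes described here encode the lipases that release fatty acids from triglycerides in and around the fat cell, and the proteins that switch those lipases on or off. They are Pnpla2, Lipe, Mgll, Abhd5, G0s2 and Pnpla3, which act inside the cell, and Lpl, Angptl4 and Lmf1, which belong to lipoprotein lipase at the vessel wall. They were named by symbol for their roles, and the rule used no measured value, though earlier results of these data were known when they were chosen. All 9 were among the 11761 genes listed, each in 1 row. CPM are read counts per 1e+06 reads of an effective library size, so their sums differ between libraries. All 9 passed the filter of a mean of at least 1 CPM that left 11643 genes for testing.

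The RNA came from epididymal white fat of Adipoq-NuTRAP mice on the C57BL/6J background, fed a high-fat diet (HFD) for 10 weeks or chow for 10 weeks, with 3 libraries per diet. Both groups carry the reporter, whose tagged ribosomes are made in cells in which Adipoq, the gene of the adipocyte hormone adiponectin, has been active. An antibody against GFP pulled these ribosomes and their RNA out of whole-fat homogenate (translating ribosome affinity purification, TRAP), so the values are levels of ribosome-bound RNA. The labels used here give neither age nor sex, and do not say whether replicates were separate animals, and each p-value below weighs a difference against the scatter of these libraries alone, part of which may be technical. The series title asks whether adipocytes keep their identity in obesity, and the comparison of HFD with chow bears on the lipases as part of that question.

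Fat is released from the adipocyte in a relay. The lipase ATGL (Pnpla2) takes the first fatty acid from a stored triglyceride, hormone-sensitive lipase (Lipe) mainly takes the next, and monoacylglycerol lipase (Mgll) frees the last from glycerol. ATGL needs the coactivator ABHD5, which perilipin-1 on the lipid droplet holds back until beta-adrenergic signals raise cAMP, and it is blocked by G0S2; PNPLA3 is a relative of ATGL that also binds ABHD5. Fat enters by the opposite route: adipocytes secrete lipoprotein lipase (Lpl), which needs LMF1 to mature in the endoplasmic reticulum, works on the capillary surface, and is inactivated by ANGPTL4.

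The effective library size recovered from the steps between low values was 32000000 to 39400000 reads in HFD libraries. In chow libraries it was 7420000 to 32500000 reads. It is the size behind the deposited scaling, not a count of sequenced reads. Chow replicate 3 stood apart: it had the smallest effective size and the largest CPM sum (1182120, where the other libraries had 984422 to 1030470). It also had the highest level of the ribosomal precursor Rn45s (23170 CPM, where the others had 4068 to 12503 CPM). The adipocyte marker Adipoq was abundant, at 1477 ± 150.5 CPM in HFD and 2260 ± 418 CPM in chow (SD, n = 3 each), and none of 8 epididymis and testis markers was listed. The median log2 fold change of all genes tested was -0.0036 under the deposited scaling, 0.10 with equal library totals and 0.32 after scaling to the median adipocyte identity gene, so changes below are relative to the bulk of genes. In RNA pooled from many cells, as in these pull-downs, fewer cells of a type and less RNA per cell cannot be told apart.

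The first lipase of the relay was lower on the high-fat diet, and neither Abhd5 nor G0s2, the members that act on it, passed the test. Pnpla2 fell to 53.7% of its chow mean, and Lipe fell to 70.9%, a smaller change near the threshold. Angptl4, the brake on lipoprotein lipase, rose to 150.5% of its chow mean. Mgll, Abhd5, G0s2, Pnpla3, Lpl and Lmf1 did not pass the test. With limma and Benjamini-Hochberg adjustment over all genes, 3 of the 9 genes were called, 1 higher and 2 lower, where 35.1% of all genes tested were called (19.1% higher and 16% lower). The share of the 9 is close to that background, so the count itself sets these genes apart from no others. The same 3 genes were those whose diets did not overlap, against 50.2% of all genes tested. The median log2 fold change of the 9 was -0.20.

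**Figure D1:**
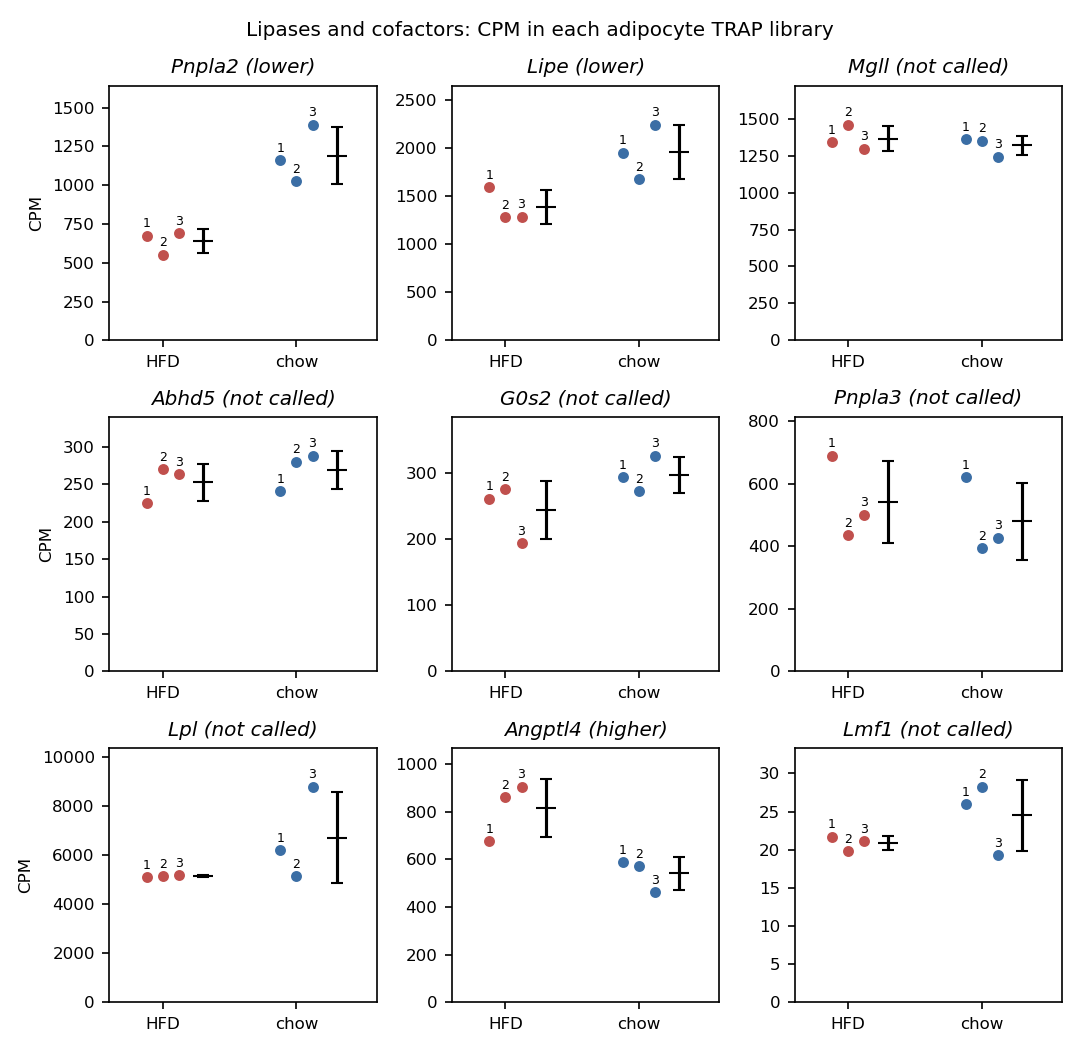
CPM of each gene in every library, with HFD at the left and chow at the right of each panel; points are libraries labelled by replicate number, and the bar at the right of each diet is the mean ± SD (n = 3). All 3 HFD libraries lie below all 3 chow libraries for Pnpla2 and Lipe and above them for Angptl4, while chow replicate 3 (8780 CPM) stretches the chow spread of Lpl.

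Pnpla2, the gene of ATGL, stood at 676, 553 and 690 CPM in HFD replicates 1, 2 and 3, and at 1160, 1024 and 1389 CPM in chow replicates 1, 2 and 3. Every HFD library was well below the lowest chow library, and the CV within a diet was 11.8% in HFD and 15.5% in chow. Its log2 fold change, HFD minus chow, was -0.89 (SE 0.16, 95% confidence interval -1.25 to -0.53, limma adjusted p 0.00273), and 5.13% of all genes tested fell by as much or more. The change kept its direction and its call under all 16 alternatives, from -0.55 after scaling to the median adipocyte identity gene (adjusted p 0.0187) to -0.996 without chow replicate 2 (adjusted p 0.00368). Without chow replicate 3 it was -0.78 (adjusted p 0.00565). Under the identity-gene scaling Pnpla2 was therefore lower than the typical adipocyte identity gene as well as lower than the bulk of genes. Pnpla2 lies on chromosome 7 at 141455188 to 141460743 (GRCm38.p6, the assembly that mm10 denotes) and overlaps no other annotated gene.

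Lipe, the gene of hormone-sensitive lipase, was measured at 1596, 1278 and 1287 CPM in HFD replicates 1 to 3 and at 1951, 1675 and 2241 CPM in chow replicates 1 to 3. The diets did not overlap, but HFD replicate 1 and chow replicate 2 lay close together. The log2 fold change was -0.49 (SE 0.17, 95% confidence interval -0.87 to -0.11, limma adjusted p 0.0481), just inside the threshold. The call was lost without HFD replicate 2 (adjusted p 0.155), HFD replicate 3 (0.162), chow replicate 1 (0.0955) or chow replicate 3 (0.0810), and it held in 8 of 16 alternatives. After scaling to the median adipocyte identity gene the difference was -0.15 (adjusted p 0.446), so relative to other adipocyte genes no fall of Lipe was called. Lipe lies on chromosome 7 at 25379527 to 25398486; its span overlaps 4732471J01Rik, which is not among the listed genes, and the library preparation in the labels names no strand marking.

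Pnpla2 and Lipe were the members that fell, and the 250 bases before their RefSeq starts are shown. The values are per gene and do not locate where the measured RNA begins. RefSeq gives Pnpla2 1 start and Lipe 2 in the table used, and which Lipe start was in use was not read here. The annotated span of Lipe reaches 25398486, upstream of both Lipe stretches. Capitals mark letters that match any of 9 short motifs searched on both strands. They are AGGTCA (the core of nuclear receptor sites), the direct repeat 1 element (a spaced pair of that core, as PPARG binds), GTAAACA (the core bound by FOXO factors) and GGGCGG (the GC box). Also searched were CCAAT (the box bound by NF-Y) and TATAAA (the TATA box found near some starts). The last were CACGTG (an E-box), TTGCGCAA (a palindrome bound by C/EBP factors) and AGAACA (the core of glucocorticoid receptor sites). On GRCm38.p6 the Pnpla2 stretch is chr7:141454938-141455187 on the plus strand, and the Lipe stretches are chr7:25395988-25396237 and chr7:25390113-25390362 on the minus strand.
Pnpla2: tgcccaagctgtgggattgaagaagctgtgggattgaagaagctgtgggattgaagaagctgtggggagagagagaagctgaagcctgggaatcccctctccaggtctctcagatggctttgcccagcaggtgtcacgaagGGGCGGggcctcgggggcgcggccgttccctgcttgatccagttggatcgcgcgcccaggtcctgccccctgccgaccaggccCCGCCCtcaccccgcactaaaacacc
Lipe start 1: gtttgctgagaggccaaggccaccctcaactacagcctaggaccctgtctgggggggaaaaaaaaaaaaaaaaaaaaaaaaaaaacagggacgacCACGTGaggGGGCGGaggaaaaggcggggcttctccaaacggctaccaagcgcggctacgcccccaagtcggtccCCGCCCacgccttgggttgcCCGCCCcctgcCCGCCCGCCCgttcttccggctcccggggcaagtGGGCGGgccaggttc
Lipe start 2: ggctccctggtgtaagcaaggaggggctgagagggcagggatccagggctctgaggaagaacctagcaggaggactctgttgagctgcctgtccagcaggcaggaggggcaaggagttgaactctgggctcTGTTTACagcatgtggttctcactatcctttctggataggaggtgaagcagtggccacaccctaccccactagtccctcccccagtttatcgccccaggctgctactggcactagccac

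The Pnpla2 stretch holds 2 GC boxes, beginning 109 and 26 bases before the start, and no match to the other 8 motifs. The first Lipe stretch holds 6 GC-box matches, 2 of which overlap, and 1 E-box that begins 155 bases before the start. The second Lipe stretch holds 1 FOXO core, which begins 119 bases before the start, and no GC box. Of 32851 mouse starts searched over the same 250 bases, 32.7% hold a GC box, 6.02% this E-box, 3.17% the FOXO core, 14% the AGGTCA core and 0.338% the direct repeat 1 element. Of the 9 genes, 7 had a start in the table, and these matches describe letters in a short window, not bound sites.

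Mgll, the gene of the last enzyme of the relay, did not pass the test, and its diets overlapped. It stood at 1342, 1458 and 1296 CPM in HFD and at 1361, 1351 and 1243 CPM in chow, the tightest spread of the 6 intracellular genes (CV of 6.12% in HFD and 4.94% in chow). The log2 fold change of Mgll was 0.05 with an SE of 0.14 (limma adjusted p 0.802) and a 95% confidence interval of -0.26 to 0.36, so these libraries leave room for a difference of up to 1.28-fold upward. Scaled to the median adipocyte identity gene, Mgll was higher in HFD (0.39, adjusted p 0.0485), where the median of all genes was itself 0.32. Mgll lies on chromosome 6 at 88724412 to 88828360 and overlaps Gm26588, which is not listed.

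Neither Abhd5 nor G0s2, the members whose proteins set ATGL's activity, passed the test. Abhd5, the coactivator, stood at 224, 271 and 263 CPM in HFD and at 241, 280 and 288 CPM in chow, with overlapping diets and a log2 fold change of -0.09 (SE 0.13, 95% confidence interval -0.39 to 0.20, limma adjusted p 0.614). Its sign turned with equal totals, quantile normalization and identity-gene scaling. G0s2, the inhibitor, stood at 261, 276 and 194 CPM in HFD and at 294, 272 and 326 CPM in chow. HFD replicate 2 lay above chow replicate 2, and the log2 fold change of -0.30 (SE 0.16, 95% confidence interval -0.65 to 0.05, limma adjusted p 0.168) did not pass, nor did it in any alternative. On GRCm38.p6 Abhd5 lies on chromosome 9 at 122351616 to 122381524 and G0s2 on chromosome 1 at 193272160 to 193273188.

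Pnpla3, the relative of ATGL, varied more between replicates than between diets. It stood at 690, 437 and 501 CPM in HFD and at 622, 393 and 428 CPM in chow, so that replicate 1 was the highest in each diet. The log2 fold change was 0.18 (SE 0.22, 95% confidence interval -0.31 to 0.66, limma adjusted p 0.556), and it was -0.01 without HFD replicate 1. Pnpla3 lies on chromosome 15 at 84167776 to 84189521 and overlaps Mir6392 and Gm20369, neither of which is listed.

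Of the vascular arm, the inhibitor rose and the lipase itself did not pass. Angptl4 stood at 676, 861 and 904 CPM in HFD and at 588, 572 and 461 CPM in chow, with every HFD library above every chow library. Its log2 fold change was 0.59 (SE 0.16, 95% confidence interval 0.22 to 0.95, limma adjusted p 0.0197). The call was lost without HFD replicate 2 (adjusted p 0.0734) or HFD replicate 3 (0.0851) and held in the other 14 alternatives, reaching 0.93 under identity-gene scaling. The gene lies on chromosome 17 at 33774900 to 33781575.

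Lpl, the gene of lipoprotein lipase, did not pass the test. CPM does not correct for transcript length, so levels of different genes are not ranked here. Lpl stood at 5113, 5149 and 5185 CPM in HFD, a CV of 0.693%, and at 6208, 5149 and 8780 CPM in chow, a CV of 27.8%. The HFD libraries were nearly identical, and chow replicate 2 fell among them, while chow replicate 3 was far above. The log2 fold change was -0.35 (SE 0.23, 95% confidence interval -0.86 to 0.16, limma adjusted p 0.262), and it was -0.13 without chow replicate 3 and -0.0042 under identity-gene scaling. Lmf1, the maturation factor, stood at 21.7, 19.8 and 21.1 CPM in HFD and at 26.0, 28.2 and 19.3 CPM in chow, with overlapping diets and a log2 fold change of -0.20 (SE 0.17, 95% confidence interval -0.59 to 0.18, limma adjusted p 0.380). It was the member with the fewest reads, 143 in chow replicate 3. On GRCm38.p6 Lpl lies on chromosome 8 at 68880555 to 68906932 and Lmf1 on chromosome 17 at 25579174 to 25662831.

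**Figure D2:**
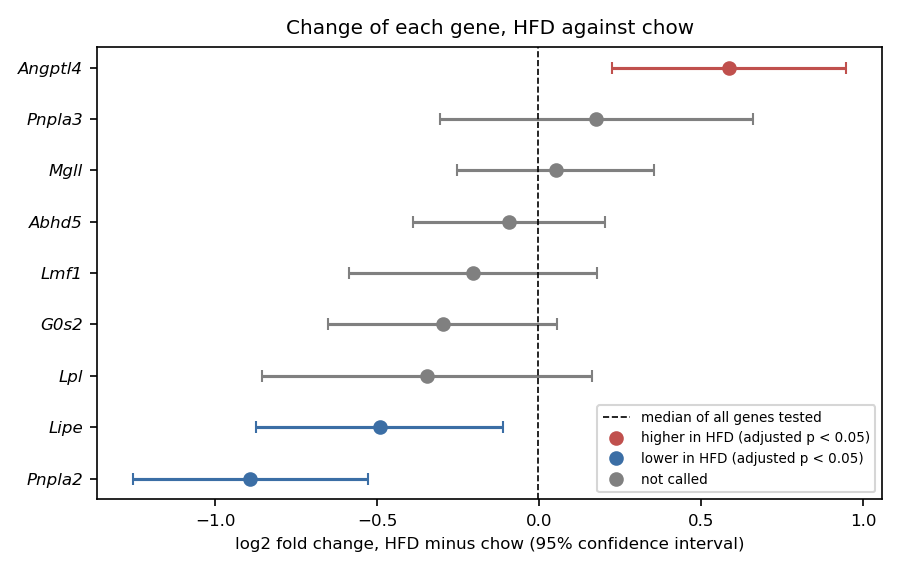
Log2 fold change of each gene, HFD minus chow, with its 95% confidence interval from limma; the dashed line is the median of all genes tested. Pnpla2 (-0.89) and Lipe (-0.49) lie left of 0, Angptl4 (0.59) lies right of it, and the intervals of the other 6 genes include 0.

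Ratios of 2 members within a library do not depend on how the library was scaled, and 8 ratios were fixed by role. Their absolute size carries the unequal lengths of the transcripts, so only the difference between diets is read. In 7 of the 8 the diets did not overlap, each with an exact two-sided permutation p of 0.1 (0.114 adjusted over the 8), the smallest that 3 against 3 libraries allow, so none could pass the threshold. Of these 7, 5 have Pnpla2 as denominator and restate its fall. Mgll over Lipe and Angptl4 over Lpl likewise hold a called member, so none of the 7 is a separate finding. The share of ratios between other genes that do not overlap was not computed; for single genes it was 50.2%, so nothing is read from the count of 7.

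With Pnpla2 as denominator, the ratios of Abhd5, G0s2 and Pnpla3 were higher in HFD libraries. The log2 ratio of Abhd5 to Pnpla2 was -1.59, -1.03 and -1.39 in HFD replicates 1 to 3 and -2.27, -1.87 and -2.27 in chow replicates 1 to 3, a mean difference of 0.80. The log2 ratio of the inhibitor G0s2 to Pnpla2 was -1.37, -0.997 and -1.82 in HFD and -1.98, -1.91 and -2.09 in chow, a mean difference of 0.59. Neither Abhd5 nor G0s2 itself passed the test. The ratio of Pnpla3 to Pnpla2 differed most, with a mean log2 ratio of -0.26 ± 0.25 in HFD and -1.32 ± 0.40 in chow (SD, n = 3 each), a difference of 1.07.

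Along the relay itself, the ratio of each later enzyme to the one before it was higher in HFD libraries. The log2 ratio of Lipe to Pnpla2 was 1.24, 1.21 and 0.90 in HFD and 0.75, 0.71 and 0.69 in chow, where the 3 chow values were close together. The log2 ratio of Mgll to Lipe averaged -0.02 ± 0.22 in HFD and -0.56 ± 0.27 in chow, a difference of 0.54. For the vascular arm the log2 ratio of the inhibitor Angptl4 to Lpl was -2.92, -2.58 and -2.52 in HFD and -3.40, -3.17 and -4.25 in chow, a difference of 0.93, or 0.61 without chow replicate 3. The ratio of Lmf1 to Lpl overlapped between the diets (-7.88 ± 0.07 in HFD and -8.02 ± 0.67 in chow; exact permutation p 0.9), and its difference changed sign without chow replicate 3. The log2 ratio of Lpl, the uptake lipase, to Pnpla2, the release lipase, was 2.92, 3.22 and 2.91 in HFD and 2.42, 2.33 and 2.66 in chow, a difference of 0.55.

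**Figure D3:**
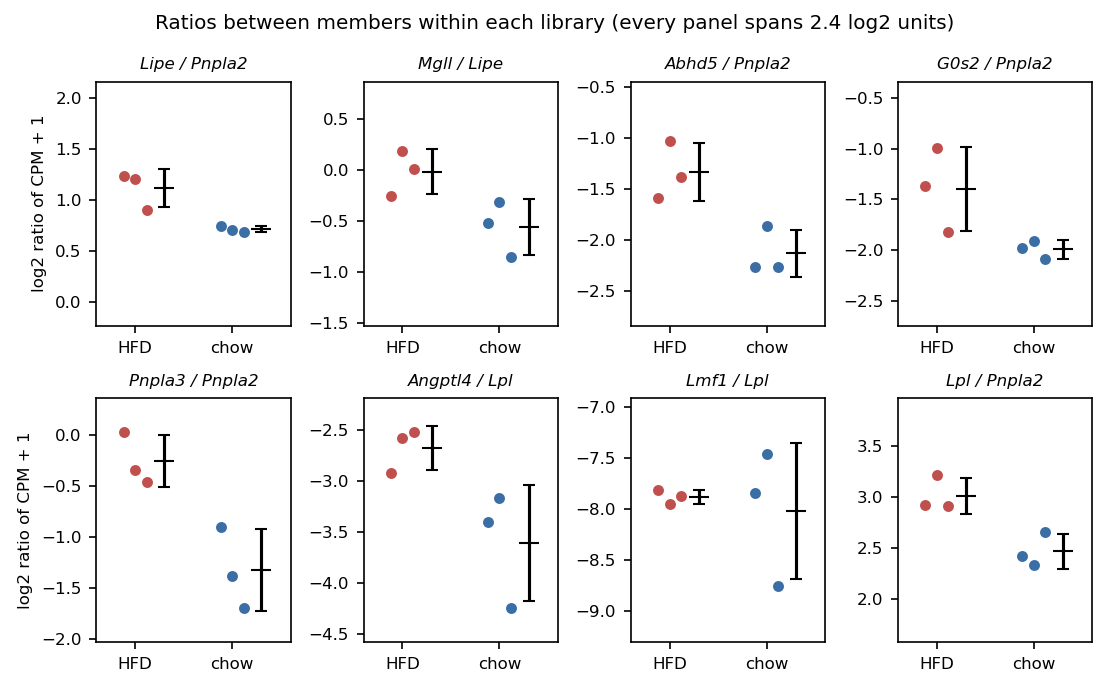
Log2 ratio of CPM + 1 between the 2 genes named above each panel, in every library, HFD at the left and chow at the right; bars are mean ± SD (n = 3), and every panel spans the same number of log2 units. The HFD libraries lie above the chow libraries in 7 panels, by 1.07 for Pnpla3 over Pnpla2, and overlap them for Lmf1 over Lpl.

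Over the 6 libraries the members fell into unlike patterns. Pearson's r of log2(CPM + 1) was 0.931 between Pnpla2 and Lipe, -0.910 between Pnpla2 and Angptl4 and -0.965 between Lipe and Angptl4. These are descriptions of 6 points that form 2 diet groups and share library and depth, so they carry no p. The genes closest in pattern to Pnpla2, of 8732 with a mean of at least 10 CPM, were Pdk2 (r 0.9998), a kinase that curbs pyruvate dehydrogenase, Zadh2 (0.9988) and Chd1l (0.9984). Pdk2 stood at 28.7 CPM in HFD and 62.0 CPM in chow (limma adjusted p 0.00182). Closest to Lipe were Ddx23, Abtb1 and the phospholipase gene Ddhd1, closest to Lpl were Fkbp1a, Ywhab and Ppp2r4, and closest to Angptl4 was Slc35g1 (r 0.9993).

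Other enzymes that cut lipid esters moved in both directions. Of 16 tested, 6 rose and 3 fell, with a median log2 fold change of -0.05 beside -0.0036 for all genes. For this and the lists below, the background in the reported fit is 19.1% of all genes tested called higher and 16% lower. Under identity-gene scaling the background is 4046 of 11658 genes tested higher and 668 lower, so 85.8% of all called genes were higher. List counts after identity-gene scaling are to be read beside that second background. Ces1f and Ces1d, carboxylesterases reported to hydrolyse triglycerides in the mouse, fell: Ces1d stood at 838, 714 and 537 CPM in HFD and at 1734, 1722 and 2353 CPM in chow (log2 fold change -1.48, limma adjusted p 0.000562). Ces1f averaged 25.0 ± 5.91 CPM in HFD and 179 ± 25.2 CPM in chow (-2.81, SD, n = 3 each). Nceh1, a cholesterol ester hydrolase, rose to 13.3 ± 1.62 CPM in HFD against 1.04 ± 0.0864 CPM in chow, and the diacylglycerol lipase gene Dagla rose by 0.79 on the log2 scale. Both carboxylesterases changed by more than Pnpla2 on the log2 scale. Most markers of macrophages were higher beside these rises: of 20, 17 were called higher in HFD, 1 lower and 2 not called, and their summed level was 403 to 696 CPM in HFD and 121 to 150 CPM in chow. Adgre1 stood at 31.2 ± 11.1 CPM in HFD and 3.55 ± 0.482 CPM in chow, and Cd68 at 7.09 ± 2.06 CPM in HFD and 0.915 ± 0.596 CPM in chow (SD, n = 3 each). The marker called lower was Cd14, at 2.28 CPM in HFD and 14.2 CPM in chow (log2 fold change -2.22, limma adjusted p 0.000209). None of the 20 markers was at the lowest value of the table in any library, but some chow values rest on few reads. Tyrobp stood at 0.0947 CPM in chow replicate 1, where 1 read was 0.043 CPM. Cd68 stood at 0.547 CPM in chow replicate 3, where 1 read was 0.135 CPM. The part of these markers in the result was not tested.

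Among the genes of the droplet surface, calls went both ways. Plin1, the perilipin that binds ABHD5, fell: it stood at 1698, 1489 and 1458 CPM in HFD and at 2210, 2150 and 2469 CPM in chow (log2 fold change -0.56, SE 0.15, limma adjusted p 0.0179). Its call was lost without HFD replicate 2 or 3 and under identity-gene scaling (-0.21, adjusted p 0.233). Plin2, a droplet coat protein made in many cell types, rose to 452 ± 31.4 CPM in HFD against 142 ± 20.5 CPM in chow (1.67, adjusted p 4.71e-05, limma; SD, n = 3 each). Hilpda, an inhibitor of ATGL, rose to 21.0 ± 1.29 CPM in HFD against 13.7 ± 1.84 CPM in chow (0.59, limma adjusted p 0.0181), a call that was lost without HFD replicate 3 or chow replicate 2. Of the 16 droplet genes tested 3 rose and 4 fell, with a median of -0.24. After identity-gene scaling 4 rose, 0 fell and the median was 0.11. Plin1, Plin4, Cidec, Cav1 and Fabp4 are themselves among the identity genes that set this scaling, so that count is not independent of it. The other falls named by rule were Hsd17b11 (-0.75), a droplet-bound dehydrogenase gene, and Fitm2 (-0.61), which helps form droplets.

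Upstream of the lipases, the genes of the cAMP arm moved both ways. Of 28 tested, 7 rose and 8 fell, with a median of 0.01; after identity-gene scaling 12 rose and 6 fell. Hcar1, the lactate receptor that curbs lipolysis, fell to 47.9 ± 3.66 CPM in HFD against 211 ± 65.5 CPM in chow (-2.07; SD, n = 3 each). Ptger3, a prostaglandin receptor that lowers cAMP, rose by 1.93, and Pde4b, which breaks cAMP down, rose by 1.46.

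Partners of lipoprotein lipase also moved in both directions. Of 24 tested, 6 rose and 8 fell, with a median of -0.18; after identity-gene scaling 10 rose and 4 fell. Angptl8, an inhibitor of lipoprotein lipase that works with its relatives, rose to 13.2 ± 9.80 CPM in HFD against 1.73 ± 0.668 CPM in chow (2.20, limma adjusted p 0.00418; SD, n = 3 each). Hspg2, the perlecan gene of the vessel-wall matrix, rose by 1.81, while Apoe, a ligand for lipoprotein uptake, and Pcsk6, a convertase that can cleave lipases, fell by 1.24 and 1.05. Cd36, the fatty acid transporter, differed by -0.16 (SE 0.16, limma adjusted p 0.467).

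Gpihbp1, the endothelial protein that carries lipoprotein lipase to the capillary lumen, averaged 7.52 ± 3.73 CPM in HFD and 2.32 ± 1.09 CPM in chow (1.30, limma adjusted p 0.0322; SD, n = 3 each). It lost its call with quantile normalization, voom weights and without HFD replicate 1, HFD replicate 2 or chow replicate 2. It is itself an endothelial marker, and 13 of 14 endothelial markers were called higher in HFD, with summed levels of 191 to 391 CPM in HFD and 43.3 to 109 CPM in chow. None was at the lowest value of the table, and their part in the change of Gpihbp1 was not tested.

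Most transcription factors reported to act on lipase genes that were called were lower. Of 24 tested, 3 rose and 11 fell, with a median of -0.45; after identity-gene scaling 7 rose and 2 fell with a median of -0.11. Irf4, a factor that promotes lipase gene expression in mouse fat, fell to 5.35 ± 0.338 CPM in HFD against 38.8 ± 21.5 CPM in chow (-2.52, limma adjusted p 0.000333; SD, n = 3 each). Klf15 fell by 0.87, and Egr1, reported to repress Pnpla2, rose to 9.56 ± 3.81 CPM in HFD against 1.97 ± 1.17 CPM in chow (1.85). Klf4 rose by 1.51. Foxo1, which activates Pnpla2 transcription, stood at 163, 119 and 170 CPM in HFD and at 184, 209 and 296 CPM in chow. Its log2 fold change was -0.59 (limma adjusted p 0.0459), and its call was lost in 9 of 16 alternatives. The other 10 factors were not called, among them Pparg (0.036, limma adjusted p 0.915) and Foxo3 (0.23, 0.258). The part of these factors in the change of any member was not tested.

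**Figure D4:**
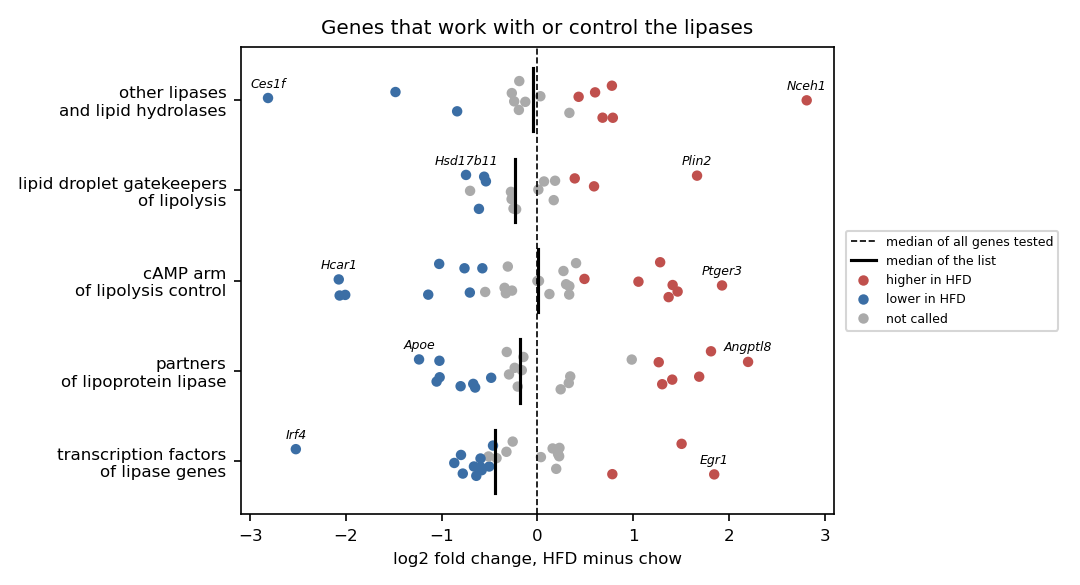
Log2 fold change, HFD minus chow, of every tested gene in 5 lists around the lipases; red points are called higher, blue points lower and grey points not called, the black bar is the list's median and the dashed line that of all genes tested. Every list has called genes in both directions; the other lipases have 6 higher and 3 lower, and the transcription factors 3 higher and 11 lower.

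Among the 30 adipocyte identity genes used as a yardstick, 5 rose and 11 fell, with a median of -0.29, and their summed level was 54488 to 60137 CPM in HFD and 64135 to 99477 CPM in chow, highest in chow replicate 3. Markers of smooth muscle and pericytes (8 of 9 higher, 0 lower), fibroblasts (5 higher and 1 lower of 15) and mesothelium (4 higher and 0 lower of 9) were also tested. Of the remaining marker lists, 1 lymphocyte gene and 2 erythroid genes were tested and not called, and 2 neutrophil or mast cell genes rose. The summed smooth muscle markers were 1151 to 1462 CPM in HFD and 368 to 458 CPM in chow. The summed 6 intracellular members were 4232 to 4789 CPM in HFD and 4996 to 5915 CPM in chow, and the 3 vascular members 5810 to 6110 CPM in HFD and 5749 to 9261 CPM in chow. The part of other cells in the change of Pnpla2, Lipe and Angptl4 was not tested.

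**Figure D5:**
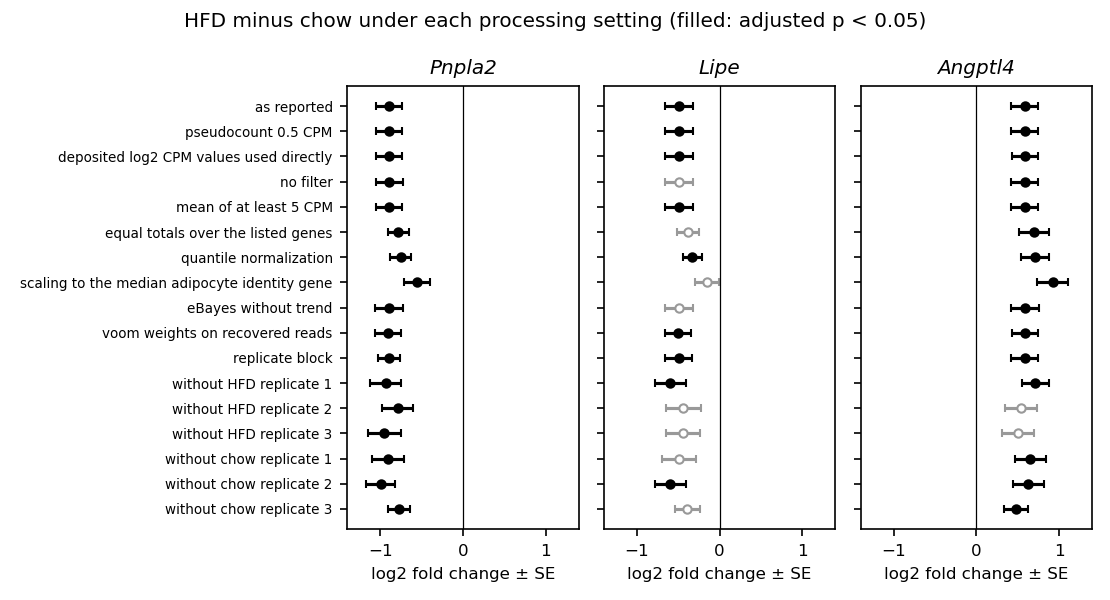
Log2 fold change, HFD minus chow, with its SE for Pnpla2, Lipe and Angptl4 under the reported setting and 16 alternatives; filled points passed an adjusted p of 0.05 and open points did not. Pnpla2 is filled under every setting, Lipe under the reported one and 8 alternatives, and Angptl4 under all but those without HFD replicate 2 or 3.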

How the data were processed

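RNA was measured in 6 libraries, 3 from mice on the high-fat diet and 3 from mice on chow. The authors deposited log2 CPM per gene, rounded to 2 decimals; that the values are log2 was read from the values, which run below 0. Per the submitters' processing notes, HISAT2, Picard, featureCounts and edgeR were used with build mm10. Roles, versions and filters were not given in the sources used here. Deposited values were undone to linear CPM, a pseudocount of 1 was added, and the log2 of the sum was fitted on diet in limma 3.58.1 under R 4.3.3, using eBayes with its trend option and two-sided tests. Of 11761 listed genes, 11643 averaged 1 CPM or more and were fitted; p-values were adjusted over them by Benjamini-Hochberg and called under 0.05. The script was tested on simulated data. All columns were mapped by diet and replicate number in the sample titles.

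The size of a read was recovered from the steps between low values, all of which (under 20 reads) came out whole within 0.1 of a read (100%); voom weights on those reads gave 3995 called genes. Members and gene lists were chosen with earlier results of these data known. Genes named beside the members were, from each list, the 2 called genes that rose most and the 2 that fell most, plus Plin1, Hilpda, Gpihbp1, Cd36, Foxo1, Adipoq, Adgre1 and Cd68, and for each member the 3 genes closest to it in pattern. A selection of these is named, and 1 gene that the rule names is not reported here. The 8 ratios between members were compared between the diets by exact permutation tests, two-sided, with Benjamini-Hochberg adjustment over the 8. The list gene Cop1 was found under its older symbol Rfwd2. The 16 alternatives changed the pseudocount, the filter, the scaling, the variance model, the pairing of replicates and the libraries included. Scaling to the median adipocyte identity gene used 30 genes, none of them a member. Some are in the lists around the lipases: Plin1, Plin4, Cidec, Cav1 and Fabp4 in the droplet list, and Adrb3, Insr and Aqp7 in the cAMP list. Cd36 is also in the list of lipoprotein lipase partners, and Pparg and Cebpa are in that of the factors. Those lists are thus scaled in part against their own genes. The chromatin samples (H3K27ac and PPARG) were not analysed here.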

Additional observations from a re-analysis of the deposited data

How the results depend on the processing

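The count of changed members was 3 as reported and ranged from 1 to 3 when 1 library was left out; it was 1 (Pnpla2) without HFD replicate 2 or 3. Lipe ranged from -0.60 to -0.39 over those fits; it was also no longer called with no filter (-0.49, adjusted p 0.0522), equal totals (-0.38, 0.0603), identity-gene scaling (-0.15, 0.446) and eBayes without trend (-0.49, 0.0544). Angptl4 ranged from 0.48 to 0.71 with a library left out. Mgll passed under identity-gene scaling (0.39, adjusted p 0.0485). Differences that were never called changed sign for Abhd5 (0.018 with equal totals, 0.022 with quantile normalization and 0.25 under identity-gene scaling), G0s2 (0.042) and Lmf1 (0.12) under identity-gene scaling, Cd36 (0.0033 with quantile normalization, 0.18 under identity-gene scaling) and Pnpla3 (-0.010 to 0.38 with a library left out). The log2 ratio of Lmf1 to Lpl ranged from -0.23 to 0.42 with a library left out. The cause of these changes was not tested. Over all genes, 2221 were higher and 1863 lower (54.4% higher), but 4046 and 668 (85.8% higher) under identity-gene scaling and 2515 and 1334 (65.3%) with equal totals; with quantile normalization 1984 were higher and 2295 lower (46.4% higher), and under a 5 CPM filter 1771 and 1775 (49.9%). Over the 5 pathway lists together, 25 of 108 genes were higher and 34 lower, 39 and 15 under identity-gene scaling. By correlation of deviations, each HFD library was closest to the chow library of its own number (0.433, 0.232 and 0.0862). Chow replicate 3, however, correlated best with HFD replicate 2 (0.15), and whether the numbers mark pairs was not tested. With the replicate block 4839 genes were called against 4084, and Pnpla2 had -0.89 (limma adjusted p 0.000862). With 3 libraries per diet the intervals are wide, and the shallowest value is that of Lmf1 in chow replicate 3 (143 reads).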

Other observations

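Abhd5 and Pnpla3 had mirrored patterns over the libraries, a pair chosen after its values were seen. Replicate 1 had the highest Pnpla3 of its diet (690 CPM in HFD and 622 CPM in chow) and the lowest Abhd5 of its diet (224 CPM in HFD and 241 CPM in chow), and Pearson's r over the 6 libraries was -0.969, a description with no p. The same library was not low or high for the other members in common: HFD replicate 1 was the highest of its diet for 3 of the 9 genes and the lowest for 3, and chow replicate 3 the highest for 5 and the lowest for 3. The expression of Lpl in HFD libraries spread far less (CV of 0.693%) than in chow libraries (27.8%), and the difference in spread was not tested.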
